A study of Mus musculus with 7 samples.

Results

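Hepatocyte identity transcription factors are the DNA-binding proteins that switch on and maintain the gene programme of the hepatocyte, the main parenchymal cell of the liver. The 9 genes described here, Hnf4a, Foxa1, Foxa2, Foxa3, Cebpa, Nr5a2, Onecut1, Onecut2 and Prox1, were named for this role, and their values were taken by matching the Ensembl identifier of each gene to its symbol in the GENCODE mouse annotation. All 9 were present, each under 1 identifier, among 14851 genes with values, and all 9 exceeded the minimum mean level of 10 normalised counts that left 12545 genes to test.

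As background, hepatocyte identity rests on a small network of factors that bind one another's control regions and many of the same liver genes. HNF4A, a nuclear receptor, and C/EBP alpha (Cebpa), a basic leucine zipper protein, drive genes of metabolism and of the secreted plasma proteins. FOXA proteins are forkhead pioneer factors that open compacted chromatin, NR5A2 is an orphan nuclear receptor of bile acid and cholesterol metabolism, ONECUT proteins are cut-homeodomain factors of the hepatobiliary lineage, and PROX1 is a homeodomain protein that acts as a corepressor of HNF4A and NR5A2 and also marks lymphatic endothelium.

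RNA from whole liver was sequenced in 7 male mice on a backcrossed C57BL/6J background, about 70 days old, 8 h after a single intraperitoneal injection of carbon tetrachloride (CCl4; 20% in corn oil, given at 1 mL/kg), a toxin that injures hepatocytes around the central vein. In 4 Albumin-Cre; p53 FL/FL mice (FL) both alleles of Trp53 were floxed, and in 3 Albumin-Cre; p53 WT/WT mice (WT) both were wild type. Both genotypes carried the Albumin-Cre transgene, which acts in hepatocytes and their precursors. Which other liver cells kept Trp53 intact was not measured here. All mice received CCl4, so the values contain no untreated liver. Some mice of both genotypes also carried a Rosa26 LSL-tdRFP reporter allele, and which livers these were was not given in the sources used here. The source names of the WT livers share 1 prefix and those of the FL livers carry others, so source and genotype cannot be told apart. In bulk tissue, fewer cells of a type and less RNA per cell cannot be told apart.

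Several features of the libraries bear on all values below. The normalised counts summed to between 14123213 and 16554427 per liver, from an estimated 11.9 to 19.5 M reads on genes. Trp53 was at 110 to 217 normalised counts in the FL livers and at 688 to 876 in the WT livers, so every liver matched its label. On the first principal component of all tested genes, which carried 66.7% of the variance, WT replicate 2 stood at 82 and FL replicate 3 at 29.2, with the other 5 livers between -25.6 and -19.1. The summed stellate cell markers (5 genes) were at 3348 normalised counts in WT replicate 2 and at 792 to 1171 in the other 6 livers, and the summed leukocyte markers (6 genes) were at 7014 in WT replicate 2 and at 3022 to 4551 elsewhere. The 6 hepatocyte markers (Alb, Ttr, Apob, Cps1, Asgr1 and Tat), mostly Alb, summed to between 1357735 and 1767946 in FL and between 1168448 and 1432902 in WT livers, with log2 fold changes above 0 for all 6, and none of the 7 markers looked for of exocrine pancreas, another tissue rich in Nr5a2, was among the genes with values. The factors are therefore also given without WT replicate 2 and FL replicate 3.

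The upstream sequences of members that carried a binding motif of the network, and those of Hnf4a and Cebpa, the most abundant members, are shown to place the genes in relation to one another. They come from RefSeq (GRCm38.p6), run 5′ to 3′ on the strand of the gene, cover at most the 250 bases before an annotated start and leave out every base that GENCODE annotates as exon. Capitals mark motif matches, and windows in lower case throughout held none.
Hnf4a, chr2:163546943-163547154, plus strand: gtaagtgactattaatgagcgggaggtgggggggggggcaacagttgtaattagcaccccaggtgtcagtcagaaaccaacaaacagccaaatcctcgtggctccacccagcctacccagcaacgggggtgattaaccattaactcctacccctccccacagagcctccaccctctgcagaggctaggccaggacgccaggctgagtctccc
Hnf4a, chr2:163506607-163506807, plus strand, ONECUT match: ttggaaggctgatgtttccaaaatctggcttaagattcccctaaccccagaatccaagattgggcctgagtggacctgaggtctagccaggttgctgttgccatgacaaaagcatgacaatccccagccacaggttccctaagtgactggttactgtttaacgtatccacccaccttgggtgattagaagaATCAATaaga
Cebpa, chr7:35119043-35119292, plus strand: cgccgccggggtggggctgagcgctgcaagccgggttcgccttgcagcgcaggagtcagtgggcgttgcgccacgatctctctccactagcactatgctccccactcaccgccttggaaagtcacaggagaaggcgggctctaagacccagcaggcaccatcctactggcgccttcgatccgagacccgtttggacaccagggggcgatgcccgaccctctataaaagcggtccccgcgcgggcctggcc
Foxa1, chr12:57546122-57546361, minus strand, FOXA match: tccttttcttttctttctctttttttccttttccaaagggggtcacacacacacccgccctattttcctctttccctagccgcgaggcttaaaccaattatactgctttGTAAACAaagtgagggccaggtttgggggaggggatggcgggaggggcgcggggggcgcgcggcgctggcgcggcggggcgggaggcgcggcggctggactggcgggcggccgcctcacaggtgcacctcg
Foxa2, chr2:148046970-148047219, minus strand, ONECUT match: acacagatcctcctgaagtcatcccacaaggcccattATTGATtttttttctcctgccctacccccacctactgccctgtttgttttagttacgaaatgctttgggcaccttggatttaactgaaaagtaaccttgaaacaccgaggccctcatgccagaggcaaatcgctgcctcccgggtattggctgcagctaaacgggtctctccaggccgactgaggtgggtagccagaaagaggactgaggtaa
Nr5a2, chr1:136953631-136953880, minus strand, C/EBP match: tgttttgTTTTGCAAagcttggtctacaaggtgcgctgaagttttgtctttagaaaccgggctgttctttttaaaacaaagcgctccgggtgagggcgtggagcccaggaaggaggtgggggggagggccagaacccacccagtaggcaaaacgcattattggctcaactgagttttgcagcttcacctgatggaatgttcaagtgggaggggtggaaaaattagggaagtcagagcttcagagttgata

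The motifs were searched on both strands in 13 windows of 8 members, and no window of Onecut2 was used. The ONECUT motif ATTGAT lay in 2 of the 13 windows, once upstream of Foxa2 and once, on the opposite strand, upstream of the distal start of Hnf4a, and it was present in 6.72% of the 32851 windows of all genes. The FOXA motif TGTTTAC was present in 3.17% of all windows and in 1 window of a member, that of Foxa1 itself. The C/EBP motif TTGCNNAA, where N is any base, was present in 9.56% of all windows and in 1 member window, that of an internal start of Nr5a2. The HNF4 motif CAAAGTCCA (0.384% of all windows) and the NR5A2 motif CAAGGTCA (1.33%) were not found in any member window. These matches describe letters within the windows and do not show binding.

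The 9 factors spanned a wide range of levels in the injured liver. Per kb of annotated exon, Hnf4a was the highest at 2794 ± 422 normalised counts (SD, n = 7 livers), followed by Cebpa at 2372 ± 333. Hnf4a exceeded Cebpa in 7 of 7 livers, by a ratio of 1.07 to 1.28, although the ranges of the genes over the livers overlapped. Foxa3 followed at 730.1 ± 142 normalised counts per kb, Foxa2 at 240.7 ± 37.6 and Foxa1 at 118.9 ± 28.9, so that the FOXA genes stood in the order Foxa3, Foxa2, Foxa1, and their ranges did not overlap. Prox1, at 117 ± 26.5 normalised counts per kb, could not be separated from Foxa1, which was the higher of the pair in 5 of 7 livers. Nr5a2 was at 67.5 ± 10.3, Onecut2 at 39.4 ± 7.44 and Onecut1 at 33.4 ± 13.5 normalised counts per kb. The Onecut genes overlapped with each other, and Onecut2 was above Onecut1 in 5 of 7 livers. From the top to the bottom of this order the mean levels per kb differed 83.5-fold. The place of Onecut1 is uncertain, because 52.8% of its exon length is shared with another gene on the same strand and how reads there were assigned was not given in the sources used here.

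**Figure D1:**
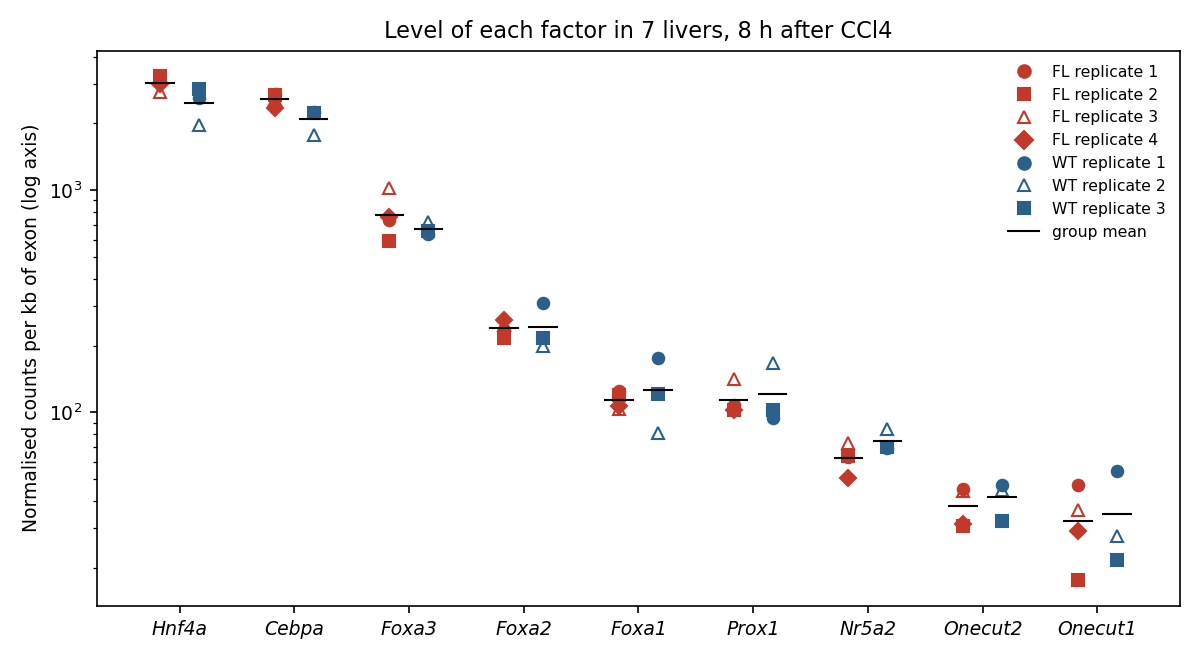
Levels of the 9 factors in each liver, in normalised counts per kb of exon on a log axis, with FL livers in red, WT livers in blue and group means as black bars; open triangles are FL replicate 3 and WT replicate 2. Hnf4a and Cebpa sit at the top with means of 2794 and 2372, and Onecut1, the lowest at 33.4 but uncertain because it shares exon bases with another gene, has the widest spread.

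Whether loss of p53 changed these factors was asked by comparing the 4 FL with the 3 WT livers. None of the 9 passed the test: with limma over all tested genes, 0 of 9 had an adjusted p below 0.05, beside 2 genes, or 0.0159%, of all genes tested (0% higher and 0.0159% lower in FL). At an unadjusted p below 0.05 there was 1 of 9, Cebpa, beside 3.2% of all genes (1.59% higher and 1.6% lower in FL). Of the 9 fold changes 4 were above 0 and 5 below, with a median log2 fold change of -0.05 beside 0.01 over all tested genes. The median of the 9 ran from -0.07 to 0.20 when single livers were left out, so its sign depended on the livers included. The adjusted p of every member was 0.999, and the 95% confidence intervals given below show how large a difference these 7 livers could still hold. Without WT replicate 2 and FL replicate 3, again 0 of 9 passed at an adjusted limma p below 0.05 and 0 of 9 at an unadjusted one. In those 5 livers the log2 fold changes were 0.20 for Cebpa, 0.19 for Hnf4a, 0.10 for Foxa3, 0.09 for Prox1, -0.13 for Foxa2, -0.15 for Onecut2, -0.24 for Nr5a2, -0.25 for Onecut1 and -0.32 for Foxa1.

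**Figure D2:**
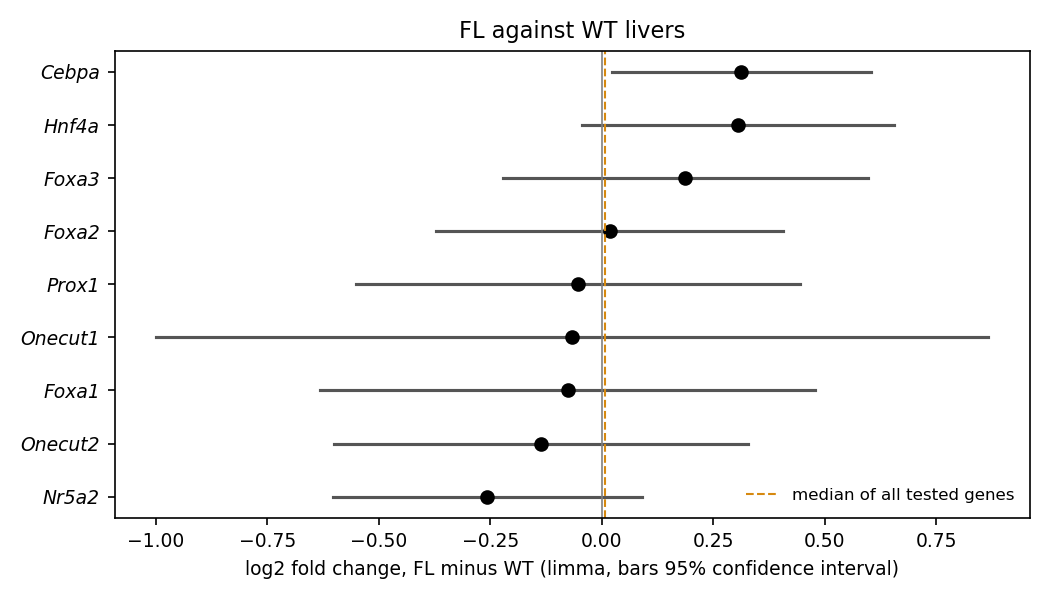
Log2 fold change of each factor, FL minus WT, with points for the limma estimate and bars for its 95% confidence interval; the dashed line is the median of all tested genes. The interval of Cebpa, 0.02 to 0.60, lies above 0, and those of the other 8 factors include 0.

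Cebpa, on chromosome 7 (chr7:35119293-35121928, plus strand, GRCm38), encodes a factor that sustains metabolic gene expression and restrains hepatocyte division. It was at 7169, 7099, 6823 and 6160 normalised counts in the FL livers, in the order of replicates 1 to 4 used throughout, and at 5954, 4668 and 5898 in WT replicates 1 to 3. Every FL liver lay above every WT liver, and WT replicate 2 was the lowest of all. Cebpa was 1 of 9 factors whose groups did not overlap, beside 4.76% of all tested genes, of which 2.77% had every FL liver above and 1.98% every FL liver below every WT liver. The means were 6813 ± 460 in FL (SD, n = 4) and 5507 ± 727 in WT (SD, n = 3), a log2 fold change of 0.31 (SE 0.13, 95% confidence interval 0.02 to 0.60), with an unadjusted limma p of 0.0376, an adjusted p of 0.999 and an exact two-sided permutation p of 0.0571. The 35 possible splits of the livers allow an exact p no smaller than 0.0286. Without WT replicate 2 the log2 fold change of Cebpa was 0.20, with an unadjusted limma p of 0.101, and without both WT replicate 2 and FL replicate 3 it was also 0.20, with an unadjusted limma p of 0.0612. The unadjusted limma p of Cebpa was likewise above 0.05 without FL replicate 1, 2 or 3 (0.0878, 0.0889 and 0.0645), with quantile scaling (0.0682) and with limma run without a trend (0.0501). The hepatocyte markers given above were also higher on average in FL, and their part in the Cebpa and Hnf4a values was not tested.

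Hnf4a, on chromosome 2 (chr2:163506808-163572910, plus strand), encodes the nuclear receptor at the centre of the network. It was at 14891, 15799, 13355 and 14486 normalised counts in FL and at 12516, 9547 and 13827 in WT livers. The groups overlapped, since WT replicate 3 exceeded FL replicate 3, and the lowest liver was again WT replicate 2. The means of 14633 ± 1013 (SD, n = 4) in FL and 11963 ± 2193 (SD, n = 3) in WT gave a log2 fold change of 0.31 (SE 0.15, interval -0.04 to 0.65) with an unadjusted limma p of 0.0786. Without WT replicate 2 the log2 fold change of Hnf4a was 0.15. Hnf4aos, a gene antisense to Hnf4a whose exons do not overlap those of Hnf4a, was at 62 to 86 normalised counts in FL and at 52, 29 and 57 in WT livers, and here too WT replicate 2 was the lowest.

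Among the factors, Hnf4a and Cebpa were the most alike from liver to liver. After each gene was centred on its own mean, their log2 profiles over the 7 livers differed by a root mean square of 0.094, the smallest distance among the 36 pairs of factors. The next pairs were Nr5a2 with Prox1 at 0.205 and Foxa1 with Foxa2 at 0.212. The most distant pair was Onecut1 with Prox1 at 0.622, and Onecut1 also varied most around its own mean, which raises this distance. These distances are descriptions over 7 livers that share their normalisation. The closeness of Hnf4a and Cebpa was not particular to this pair, since genes outside the list lay nearer to each of them, as given below.

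The FOXA genes encode closely related forkhead proteins with partly redundant roles in liver, and Foxa1 and Foxa2 were more alike across the livers than either was to Foxa3. Foxa1 (chr12:57540628-57546916, minus strand), which together with Foxa2 prepares embryonic endoderm for the liver fate, was at 415, 397, 345 and 357 normalised counts in FL and at 582, 268 and 404 in WT replicates 1 to 3. The WT livers held both the highest and the lowest value, and all FL livers lay between them. Foxa2 (chr2:148042877-148046969, minus strand), which also regulates bile acid handling and the fasting response, was at 558, 511, 588 and 620 normalised counts in FL and at 736, 470 and 510 in WT livers. As with Foxa1, WT replicate 1 was the highest liver and WT replicate 2 the lowest. Foxa3 (chr7:19013284-19023538, minus strand), the most abundant FOXA gene of adult liver, was at 1491, 1208, 2085 and 1537 normalised counts in FL and at 1292, 1464 and 1333 in WT livers. Its highest and lowest values were both in FL livers, at replicates 3 and 2, and the WT livers stood close together. The log2 fold changes were -0.08 for Foxa1 (SE 0.24, interval -0.63 to 0.48), 0.02 for Foxa2 (SE 0.17, interval -0.37 to 0.41) and 0.19 for Foxa3 (SE 0.18, interval -0.22 to 0.60), with unadjusted limma p of 0.759, 0.919 and 0.321. The sign for Foxa2 turned with trimmed-mean and quantile scaling and without WT replicate 2 (-0.11), among other alternatives, and Foxa1 ran from -0.36 without WT replicate 2 to 0.20 without WT replicate 1. Of the 36-base stretches of each transcript, 3 of 3290 in Foxa1 and 3 of 2365 in Foxa2 occurred in the other gene, so few reads could be exchanged between them.

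Nr5a2 (chr1:136842571-136960448, minus strand), also called LRH-1, was at 371, 374, 429 and 299 normalised counts in FL and at 407, 497 and 411 in WT livers. WT replicate 2 was the highest liver and FL replicate 4 the lowest, and the groups overlapped because FL replicate 3 exceeded WT replicates 1 and 3. Its log2 fold change of -0.26 (SE 0.15, interval -0.60 to 0.09) was the lowest among the 9 factors, with an unadjusted limma p of 0.126 and an exact two-sided permutation p of 0.114. Without WT replicate 2 and FL replicate 3 the log2 fold change was -0.24.

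Prox1 (chr1:190118035-190170714, minus strand) was at 910, 863, 1187 and 863 normalised counts in FL and at 794, 1395 and 857 in WT livers. The highest values of both genotypes were in the livers that stood apart, FL replicate 3 and WT replicate 2, and the other 5 livers lay between 794 and 910. The log2 fold change was -0.05 (SE 0.22, interval -0.55 to 0.44) with an unadjusted limma p of 0.811, and it was 0.20 without WT replicate 2 and 0.09 without both livers. As PROX1 also marks lymphatic endothelium, the summed lymphatic endothelial markers Lyve1, Pdpn and Flt4 were examined, which were at 743 to 1094 normalised counts in FL and at 635 to 995 in WT livers. The highest sum of each genotype was in FL replicate 3 and WT replicate 2, as for Prox1. This was not particular to the lymphatic markers. The same livers also had the highest sinusoidal endothelial, stellate, leukocyte and hepatocyte marker sums of their genotype, though not the highest bile duct sums. The part of any of these cell types in the Prox1 values was not tested. Lyve1 and Flt4, which sinusoidal endothelium also expresses, made up the sum, since Pdpn was at 0 to 4 normalised counts. Prox1os, on the opposite strand, shares 133 exonic bases (1.59%) with Prox1 and was at 66 to 90 normalised counts in FL and at 56 to 82 in WT livers.

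Onecut1 (chr9:74861921-74891781, plus strand), also called HNF6, was at 194, 72, 149 and 120 normalised counts in FL and at 225, 114 and 89 in WT livers. Both genotypes spanned more than a doubling between their lowest and highest livers, FL replicate 2 and WT replicate 1 being the extremes. Its log2 fold change of -0.07 turned in sign with quantile scaling and had the widest interval of the 9, from -0.999 to 0.87 (SE 0.40, exact two-sided permutation p = 0.886). The lowest liver rested on an estimated 52 reads, for which counting error alone is 13.9%, against a coefficient of variation between livers of 38.3% in FL and 50.7% in WT. Onecut1 values are uncertain for another reason as well. Of its exonic bases, 52.8% (2171 bases) are shared with the non-coding gene Gm20649 on the same strand. Gm20649 was not among the genes with values, so its own level could not be read. Onecut2 (chr18:64340020-64400987, plus strand), a related factor of hepatobiliary development, was at 733, 499, 719 and 508 normalised counts in FL and at 762, 729 and 528 in WT livers. In Onecut2 each genotype held livers near 500 and livers above 700, and the log2 fold change was -0.14 (SE 0.20, interval -0.60 to 0.33, exact two-sided permutation p = 0.543).

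**Figure D3:**
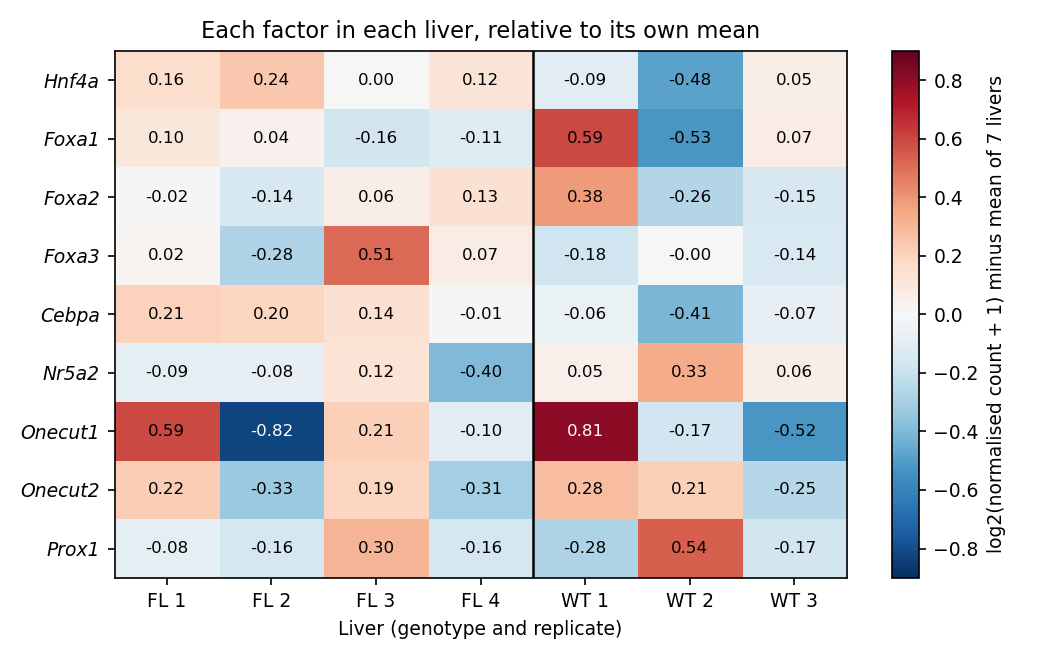
Log2(normalised count + 1) of each factor (vertical axis) in each of the 7 livers (horizontal axis), minus the mean of that factor over the livers, with red above and blue below the mean. WT 2 is at -0.48 for Hnf4a and -0.41 for Cebpa but at 0.54 for Prox1 and 0.33 for Nr5a2, and Onecut1 varies most, from -0.82 to 0.81.

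WT replicate 2 differed from the other WT livers in both directions among the factors. Against the mean of the other WT livers on the log2 scale, WT replicate 2 was lower for Foxa1 (-0.85), Hnf4a (-0.46), Foxa2 (-0.38), Cebpa (-0.34) and Onecut1 (-0.31), and higher for Foxa3 (0.16), Onecut2 (0.20), Nr5a2 (0.28) and Prox1 (0.76). It was the lowest of the 7 livers in 4 of 9 factors (44.4%, beside 33.9% of all tested genes) and the highest in 2 of 9 (22.2%, beside 31.5%). The summed stellate and leukocyte markers were highest in this liver, in which 4 of 5 and 5 of 6 of the tested markers had their highest value, and their part in the values of the 9 factors was not tested. FL replicate 3 differed from the other FL livers by between -0.17 for Foxa1 and Hnf4a and 0.57 for Foxa3. The median log2 SD of the 9 factors was 0.215 within FL and 0.288 within WT livers, beside 0.204 and 0.293 over all tested genes.

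The genes whose profile over the 7 livers was most like that of each factor were identified by the same root mean square distance. For Hnf4a these were Rilpl1 (0.047) and Bsdc1 (0.061). For Cebpa they were Pcx (0.049), which encodes pyruvate carboxylase, and Srsf4 (0.052). Prox1 had the nearest neighbour of all, Abhd14b (0.031), followed by Anpep (0.047). Among the FOXA genes, Foxa1 was nearest to Dnm1l (0.085) and Zfp408 (0.087), Foxa2 to Tgs1 and Rbm3 (both 0.075), and Foxa3 to Fbxl8 (0.048) and Rgl3 (0.073). Nr5a2 was nearest to 1810030O07Rik (0.055) and Limk1 (0.058), and Onecut2 to Eef2k (0.074) and B3gntl1 (0.088). Onecut1 was nearest to Dact1 (0.227) and Zfp975 (0.238). The distance grows with the spread of a gene around its own mean. That spread was a root mean square of 0.540 for Onecut1 and of 0.199 to 0.312 for the other factors. With 12545 genes and 7 livers, close profiles are numerous and carry no test here.

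The factors that work beside these 9 in hepatocytes were examined as a further list. With limma, 0 of 16 other liver factors passed at an adjusted p below 0.05, 1 of 16 had an unadjusted p below 0.05 (beside 3.2% of all tested genes), and the median log2 fold change was 0.04. The gene in question was Nr1h4, the bile acid receptor FXR. It was at 1965, 1932, 2058 and 2101 normalised counts in FL and at 1664, 1636 and 1657 in WT livers. All FL livers exceeded all WT livers, as in 2.77% of all tested genes, and the WT values were tight. The log2 fold change of Nr1h4 was 0.28 (SE 0.09), with an unadjusted limma p of 0.0115 and an adjusted p of 0.999. Hhex, a homeodomain factor of early liver development, had a log2 fold change of 0.16 (SE 0.22) and the orphan nuclear receptor gene Nr2f2 of -0.31 (SE 0.26). Of 5 corepressors and coactivators, 0 passed at an adjusted and 0 at an unadjusted limma p below 0.05. Among them Nr0b2, the small heterodimer partner SHP that represses HNF4A and NR5A2, was at 24, 18, 162 and 14 normalised counts in FL and at 27, 148 and 44 in WT livers. Both livers that stood apart were the high ones, and its log2 fold change was -0.80 (SE 0.90). It ran from -1.57 without FL replicate 3 to -0.11 without WT replicate 2, and was -0.88 (SE 0.33, adjusted limma p of 0.453) without both. The fold changes of Ppargc1a (-0.06) and Ncor1 (-0.03) were close to 0.

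Paralogs of the 9 factors included other C/EBP genes, some of which are induced by acute injury. Of 8 paralogs listed, 6 had values and 5 were tested, and 0 of 5 passed at an adjusted and 2 of 5 at an unadjusted limma p below 0.05, beside 3.2% of all tested genes. Cebpb, the C/EBP gene of the acute phase and of regeneration, was at 3958, 4934, 2188 and 3774 normalised counts in FL and at 2330, 1259 and 2690 in WT livers. The groups overlapped at FL replicate 3, and the lowest liver was WT replicate 2, with a log2 fold change of 0.84 (SE 0.33) and an unadjusted limma p of 0.0366 beside an exact two-sided permutation p of 0.114. Without both of these livers the log2 fold change of Cebpb was 0.74 (SE 0.12), with an adjusted limma p of 0.123. Cebpd was at 224, 247, 226 and 315 normalised counts in FL and at 192, 167 and 187 in WT livers. For Cebpd every FL liver lay above every WT liver, as in 2.77% of all tested genes. The log2 fold change of Cebpd was 0.46 (SE 0.15), with an unadjusted limma p of 0.0169 and an exact two-sided permutation p of 0.0286, the smallest possible. Cebpg had a log2 fold change of 0.16 (SE 0.15), and those of Cebpe and Prox2 were -0.34 (SE 0.25) and -0.39 (SE 0.30), both with unadjusted p above 0.05. The groups of Cebpe did not overlap either, with FL livers at 82, 87, 82 and 45 normalised counts below WT livers at 95, 88 and 91. In 1.98% of all tested genes every FL liver lay below every WT liver. Hnf4g, the paralog of Hnf4a, was at 0 to 4 normalised counts and was not tested.

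Genes known as direct targets of the factors gave no call in any list. With limma, 0 of 8 HNF4A targets passed at an adjusted and 1 of 8 at an unadjusted p below 0.05, beside 3.2% of all tested genes, and their median log2 fold change was 0.19. In 3 of 8 every FL liver lay above every WT liver, beside 2.77% of all tested genes: Ttr, which encodes the thyroid hormone carrier transthyretin, the apolipoprotein gene Apoc3 and the coagulation factor gene F7. Ttr was at 68660, 72689, 75633 and 85481 normalised counts in FL and at 54970, 67365 and 51671 in WT livers. The log2 fold change of Ttr was 0.39 (SE 0.16), with an unadjusted limma p of 0.0458 and an exact two-sided permutation p of 0.0286. Within WT it was highest in replicate 2, the liver in which Hnf4a was lowest. Apoc3 and F7 had log2 fold changes of 0.26 (SE 0.14) and 0.24 (SE 0.12). Of 6 FOXA targets, 0 passed at an adjusted and 1, Ttr again, at an unadjusted limma p below 0.05 (beside 3.2% of all tested genes), with a median of 0.33, and Igfbp1 varied most, from 9253 to 37469 normalised counts in FL and from 3730 to 18842 in WT livers (log2 fold change 1.23, SE 0.67). Its log2 fold change ran from 0.50 to 1.70 when single livers were left out and was 0.96 (SE 0.14) without both WT replicate 2 and FL replicate 3, with an adjusted limma p of 0.0891. Of 5 C/EBP alpha targets, 0 passed at an adjusted and 0 at an unadjusted limma p below 0.05, and the albumin gene Alb had a log2 fold change of 0.31 (SE 0.29), Cps1 of 0.10 (SE 0.16) and Pck1 of -0.25 (SE 0.40). Of 7 NR5A2 targets, 0 passed at an adjusted and 0 at an unadjusted limma p below 0.05, with a median of -0.18, and Apom (0.30, SE 0.15), Cyp8b1 (0.66, SE 0.51) and Abcg5 (-0.32, SE 0.33) took both signs.

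Genes of the foetal liver and of bile duct cells, which lie outside the adult hepatocyte programme, were read beside the factors. Of 5 foetal genes 3 were tested, and 0 passed at an adjusted and 0 at an unadjusted limma p below 0.05. Afp, which encodes alpha-fetoprotein, was at 32, 35, 53 and 35 normalised counts in FL and at 49, 72 and 46 in WT livers, and the fold change on the log2 scale was -0.51 (SE 0.26). Of 6 bile duct markers 5 were tested, 0 passed at an adjusted limma p below 0.05, and at an unadjusted p below 0.05 there were 1 higher and 2 lower in FL, beside 1.59% and 1.6% of all tested genes. The cytokeratin gene Krt19 was at 21, 11, 6 and 17 normalised counts in FL and at 128, 106 and 26 in WT livers. Krt7, another duct cytokeratin, was at 2 to 18 in FL and at 28 to 33 in WT livers. In Krt19 and Krt7 every FL liver lay below every WT liver, beside 1.98% of all tested genes. Their log2 fold changes were -2.41 (SE 0.62) and -1.78 (SE 0.62), with unadjusted limma p of 0.00464 and 0.0205 and an adjusted p of 0.999 for both. The groups overlapped in the duct markers Epcam and Spp1. Sox9 is a factor of bile duct and progenitor cells that is also induced in injured hepatocytes. It went the other way from Krt19 and Krt7, at 763, 596, 297 and 555 in FL and at 261, 249 and 204 in WT livers. In Sox9 every FL liver lay above every WT liver, beside 2.77% of all tested genes. Its log2 fold change was 1.14 (SE 0.30), with an adjusted limma p of 0.999. Without WT replicate 2 and FL replicate 3 the adjusted limma p of Sox9 was 0.0270.

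**Figure D4:**
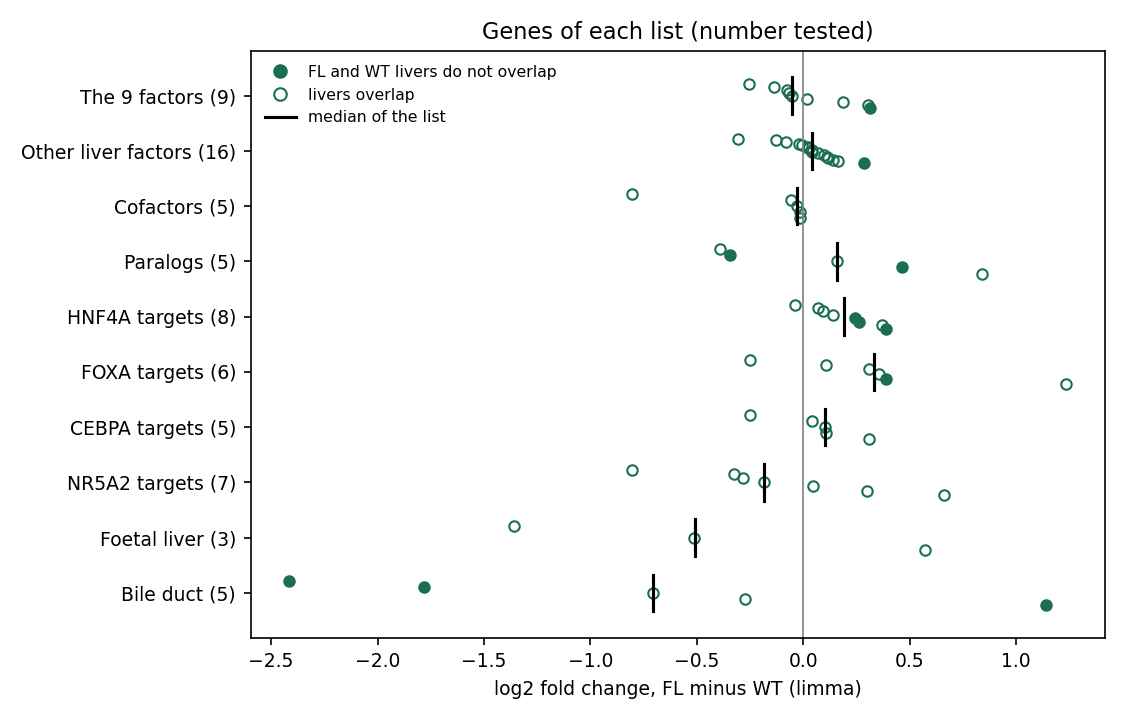
Log2 fold change, FL minus WT, of the tested genes of each list, 1 point per gene, with filled points where the livers of the genotypes do not overlap and a bar at the median of each list. The 9 factors lie between -0.26 and 0.31 around a median of -0.05, and bile duct genes spread from -2.41 to 1.14.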

How the data were processed

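Liver RNA-seq of 4 FL and 3 WT mice was used, grouped by the labels. The authors aligned reads with TopHat2 (2.0.13) and Bowtie2 (2.2.6.0) to Ensembl release 75 (written as GRCh38.75 for mouse) and normalised counts with DESeq2. For the counting the paper names HTSeq, and the processing record of the samples lists featureCounts as well as HTSeq. The strand setting of the counting was not given in the sources used here. What the authors deposited is a table of normalised counts in rounded form, which has no fixed unit and was treated as a score, so no count test was run. The value of 1 read (0.811 to 1.384 normalised counts per liver) was estimated from gaps between low values, and intervals from such depths cover counting error only.

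The 120 identifiers listed on several lines were kept once, 14839 of 14851 identifiers received a symbol from GENCODE M21 of GRCm38, which also gave coordinates and the union of exons per gene, and 0 sample columns were left unused. Log2(normalised count + 1) was compared with limma 3.58.1 (R 4.3.3, eBayes with trend) over genes that averaged 10 or more across the 7 livers. Benjamini-Hochberg adjustment and a threshold of 0.05 were used. The fit was first tried on simulated data. Their spread was taken without WT replicate 2 and FL replicate 3, so the trial does not cover the spread that these livers add. Fold changes are on the log2(normalised count + 1) scale, which understates those of low genes. Single genes had exact two-sided permutation tests over the 35 splits of livers. Each liver came from a separate mouse. Promoter windows were searched with Python 3.11.15.

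The members and lists were chosen with earlier results of these data known. Named were the 9 factors, Trp53, up to 3 genes per list with the smallest unadjusted p, a few fixed genes (among them Alb, Ttr and Nr0b2), paralogs, and the 2 most similar genes per factor; a few list genes and 1 motif are not reported here singly. Markers of stellate cells, leukocytes and endothelia served as sums, apart from the level of Pdpn and the counts of markers highest in WT replicate 2. The sinusoidal markers summed to 1909 to 1982 in FL and 1815 to 2314 in WT livers, and the bile duct markers to 603 to 1482 and 884 to 1207. Alternatives changed the pseudocount, filter, scaling, trend, weights, replicate block and livers included.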

Additional observations from a re-analysis of the deposited data

Results flagged for a closer look

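In groups of 4 livers, a liver was marked as far from the rest when its gap to the nearest liver exceeded the 95% critical share of the range of the group for 4 values (Dixon's test). Over 36 named genes in the FL livers this marked 4, where chance gives about 1.8. Among the 9 factors it marked Prox1, at 1187 normalised counts in FL replicate 3 (ratio of gap to range 0.855). Nr0b2 was marked in the same liver at 162 (0.932), and Afp at 53 (0.857). Cebpe was marked in FL replicate 4 at 45 (0.881). The WT group of 3 was too small for this test.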

How the results depend on the processing

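No member passed an adjusted p of 0.05 under any of the 18 alternatives, where their adjusted p ran from 0.305 to 1. Of 162 member values under alternatives, 147 kept their sign and 15 reversed. The number of genes called over the whole table was 2, against 0 with a pseudocount of 5, with a mean of at least 50, without a trend and with the replicate block, 1 with quantile scaling, 5 with array weights, 6 without WT replicate 2 and FL replicate 3, and 0 to 5 when each liver was left out in turn; the cause was not tested. Deviations of same-numbered livers from their group means correlated at 0.438, -0.483 and -0.661 for replicates 1 to 3. With WT replicate 2 and FL replicate 3 far from their groups under different numbers, these values cannot show whether the livers were paired.

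Log2 fold changes that reversed were, for Foxa2, -0.00019 with trimmed-mean scaling, -0.0018 with quantile scaling, -0.061 with array weights, -0.024 with the replicate block and -0.13 without WT replicate 2 and FL replicate 3. Prox1 was at 0.089 with array weights and 0.091 without both livers. Quantile scaling gave Cps1 -0.14, Onecut1 0.027 and Ppargc1a 0.013, and array weights gave Ncor1 0.037. With single livers left out, reversals lay within -0.11 to 0.21 for Foxa2, -0.36 to 0.20 for Foxa1, -0.35 to 0.32 for Onecut1, -0.21 to 0.20 for Prox1, -0.50 to 0.069 for Pck1, -0.15 to 0.045 for Ppargc1a, -0.091 to 0.0059 for Ncor1, -0.60 to 0.078 for Abcg5 and -0.019 to 0.41 for Hhex. By the longest transcript in place of all exons, Nr5a2 was at 84.2 normalised counts per kb.

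The log2 fold change of Cebpa ran from 0.20 to 0.37 and that of Hnf4a from 0.15 to 0.42 over the single livers left out. Sox9 passed with array weights (log2 fold change 1.43, adjusted limma p of 0.0499) and without both livers (1.45). It did not pass under the other 16 alternatives. Estimated counting error was highest for Onecut1 (13.9% at its lowest liver), and in all 9 factors the spread between livers of each genotype exceeded it.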
